A study of Mus musculus with 17 samples.

Results

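The genes described are 6 that are known as markers of the mesothelium, Upk3b, Upk1b, Msln, Wt1, Lrrn4 and Gpm6a, out of 19751 genes measured on lung arrays of 17 Balb/c mice. They were chosen by name with the log2 group differences of these same arrays already known (Upk3b had among the largest), so those differences are given below as a description without a test. The saline group held 6 mice that were sensitized and challenged with saline, and its labels name no antibody. The isotype group held 5 mice that received ovalbumin (OVA), the allergen, together with an isotype control antibody. The anti-RGMb group held 6 mice that received OVA together with a monoclonal antibody against RGMb, a lipid-anchored surface protein that binds BMP ligands and the receptor neogenin. No group received anti-RGMb without OVA. The title places the question in airway hyperreactivity. Isotype against saline compares mice given OVA and a control antibody with saline mice. If saline mice received no antibody, effects of OVA and of the control antibody cannot be told apart there. Anti-RGMb against isotype gives what the antibody against RGMb changed in lungs exposed to OVA.

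Mesothelium is the flat epithelium that lines the pleura, the pericardium and the peritoneum, and in the lung it forms the outer surface of the organ. Its cells secrete a lubricating fluid, carry a glycocalyx with mesothelin, and express WT1, a transcription factor that few other adult cell types use. The epicardium, which covers the heart, shares many of these genes. Whole-lung RNA holds the pleural layer as a small share of all cells.

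The sample titles number the mice 1 to 3 in each group and repeat the numbers with a suffix for 8 of the 17 mice. The mice without and with the suffix are called set 1 and set 2 here, and the labels do not say what separates them. Set 1 held 3 mice a group (mice 1, 2 and 3), and set 2 held 3 saline, 2 isotype and 3 anti-RGMb mice (mice 1-2, 2-2 and, except for isotype, 3-2). Array medians were 120 to 125 intensity units in set 1 and 362 to 386 in set 2, so levels are compared only within a set or with the set as a block. All 6 genes were measured, each by 1 probe set, and none was in the dimmest 25% of genes on any of the 17 arrays. Upk3b lay at the 73rd to 97th percentile of its array, Gpm6a at the 70th to 93rd, Msln at the 54th to 86th, Lrrn4 at the 56th to 84th, Upk1b at the 50th to 81st and Wt1 at the 36th to 46th. Among 26 other measured mesothelial genes, 4 (Calb2, Tbx18, Chst4 and Muc16) were in the dimmest 25% on some arrays.

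The RefSeq promoter table (GRCm38.p6) held 3 of the 6 genes. The 250 bases before the start site are shown for these 3, Upk3b, Lrrn4 and Gpm6a, the only ones available. Upk3b and Lrrn4 varied together between mice, as described further on, and Upk3b and Gpm6a were lower in isotype mice in both sets. Of the letters searched, GGAATG, the core bound by TEAD factors, is in capitals because all 3 windows shown hold it (written CATTCC where it lies on the other strand).
Upk3b, chr5:136038246-136038495, plus strand: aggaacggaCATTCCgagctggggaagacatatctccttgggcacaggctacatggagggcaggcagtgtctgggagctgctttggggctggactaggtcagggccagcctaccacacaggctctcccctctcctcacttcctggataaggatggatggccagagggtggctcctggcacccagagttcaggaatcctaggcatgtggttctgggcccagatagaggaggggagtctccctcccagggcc
Lrrn4, chr2:132880863-132881112, minus strand, at a start site that is not the outermost start of the gene: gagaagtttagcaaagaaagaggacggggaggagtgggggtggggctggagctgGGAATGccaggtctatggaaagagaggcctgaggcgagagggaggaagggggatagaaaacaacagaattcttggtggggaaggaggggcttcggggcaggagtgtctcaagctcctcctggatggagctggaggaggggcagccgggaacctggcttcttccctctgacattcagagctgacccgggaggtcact
Gpm6a, chr8:54779184-54779433, plus strand: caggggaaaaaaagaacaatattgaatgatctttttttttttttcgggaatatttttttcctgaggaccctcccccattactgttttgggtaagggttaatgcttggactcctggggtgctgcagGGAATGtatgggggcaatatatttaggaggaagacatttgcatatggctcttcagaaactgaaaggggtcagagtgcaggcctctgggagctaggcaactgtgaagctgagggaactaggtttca
The letters lie at -241 to -236 from the start site in Upk3b, at -196 to -191 in Lrrn4 and at -125 to -120 in Gpm6a. On either strand, 12.6% of all 32851 windows in the table held GGAATG. These letters were marked because they were present, so the share beside them is no test of enrichment. A second Gpm6a start, 54954728 on the same chromosome, did not hold it and held TATAAA, which 12.4% of all windows held. Other letters were looked for on both strands and lay in 0 of these 4 windows. A WT1/EGR core, GCGGGGGCG, was present in 2.57% of all windows in the table. A shorter WT1 site, searched as GTGGGAG, was present in 8.25% of all of them. The GC box bound by SP factors, GGGCGG, was found in 32.7% of the windows. A SMAD element of BMP targets, searched as GGCGCC, was found in 9.59% of the windows. The GATA site, searched as AGATAA, was found in 9.99% of the windows. These are matches of letters in these windows, and no binding was measured.

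In the isotype group 3 of the 6 genes, Upk3b, Msln and Gpm6a, were lower than in saline by 0.90 to 1.37 on the log2 scale, and in the anti-RGMb group the same 3 were higher than in isotype by 0.84 to 1.21. For Upk1b and Lrrn4 the means differed in these directions in set 1 only, and Wt1 had differences of 0.14 or less in size in each comparison. In bulk lung RNA, fewer mesothelial cells and less RNA per cell cannot be told apart.

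Upk3b encodes a uroplakin, a membrane protein first known from the urinary bladder that is also a marker of mesothelial cells. Its linear intensities in set 1 were 1383, 1027 and 1041 in saline mice, 566, 326 and 366 in isotype mice, and 1489, 653 and 1556 in anti-RGMb mice. In set 2 they were 3312, 2128 and 3023 in saline, 1288 and 1151 in isotype, and 1942, 2373 and 2353 in anti-RGMb. Every isotype mouse lay below every saline and every anti-RGMb mouse of its set, and saline and anti-RGMb mice overlapped in both. On the log2 scale the difference was -1.37 ± 0.21 (SE) between isotype and saline, 2.58-fold lower, and 1.21 ± 0.21 between anti-RGMb and isotype, 2.32-fold higher. Between anti-RGMb and saline it was -0.16, with a 95% interval of -0.58 to 0.26.

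Msln encodes mesothelin, a surface glycoprotein anchored by a lipid that binds the mucin Muc16. In set 1 its log2 levels were 8.79, 8.56 and 8.66 in saline, 7.84, 7.29 and 7.49 in isotype, and 9.23, 8.06 and 9.12 in anti-RGMb mice. Set 2 gave 10.77, 9.94 and 10.41 in saline, 9.70 and 9.68 in isotype, and 9.98, 10.36 and 10.47 in anti-RGMb. As for Upk3b, the isotype mice were the lowest of each set and did not overlap with either other group. Isotype was lower than saline by 0.95 on the log2 scale (difference -0.95 ± 0.20, 1.93-fold), and anti-RGMb was higher than isotype by 0.96 ± 0.20 (1.95-fold). The anti-RGMb and saline means differed by 0.02, with an interval of -0.38 to 0.42.

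Gpm6a encodes a membrane glycoprotein of the proteolipid family that is best known from neurons. Its levels in set 1 were 9.24, 9.43 and 9.31 in saline, 8.56, 8.21 and 8.52 in isotype, and 9.63, 8.94 and 9.58 in anti-RGMb mice (log2). In set 2 they were 11.46, 11.14 and 11.29 in saline, 10.34 and 10.48 in isotype, and 10.94, 11.23 and 11.18 in anti-RGMb. Isotype mice again lay apart below both other groups. Gpm6a was the least variable of these 3 genes, with a standard deviation within groups of 0.21 against 0.40 for Upk3b and 0.37 for Msln. The isotype minus saline difference was -0.90 ± 0.11 and nearly equal in the sets (-0.90 and -0.89). Anti-RGMb exceeded isotype by 0.84 ± 0.11, and its difference from saline was -0.06 (interval -0.29 to 0.17).

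Upk1b encodes a uroplakin of the tetraspanin family. Set 1 gave log2 levels of 7.99, 7.63 and 7.65 in saline, 7.03, 7.30 and 7.08 in isotype, and 8.50, 7.62 and 8.80 in anti-RGMb mice. Set 2 gave 9.74, 9.13 and 9.57 in saline, 9.60 and 9.53 in isotype, and 9.35, 9.44 and 9.53 in anti-RGMb. Isotype mice were thus the lowest in set 1. In set 2 they lay within the saline range, and the lower of them was level with the highest anti-RGMb mouse (both 9.53). Over both sets isotype was below saline (-0.34 ± 0.22) and anti-RGMb above isotype (0.59 ± 0.22), and, for anti-RGMb minus saline, the difference was 0.25 (interval -0.19 to 0.69). Within sets the anti-RGMb minus isotype difference was 1.17 ± 0.22 and -0.13 ± 0.25.

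Lrrn4 encodes a membrane protein with leucine-rich repeats. Its levels in set 1 were 8.49, 7.95 and 8.09 in saline, 8.11, 7.43 and 7.41 in isotype, and 8.85, 7.77 and 9.06 in anti-RGMb mice (log2). Set 2 values were 10.34, 9.83 and 10.26 in saline, 10.43 and 10.28 in isotype, and 10.24, 10.21 and 10.28 in anti-RGMb. The groups overlapped in both sets. The isotype minus saline difference was -0.22 ± 0.23. Anti-RGMb minus isotype was 0.46 ± 0.23 over both sets, 0.91 ± 0.27 in set 1 and -0.11 ± 0.30 in set 2. The anti-RGMb and saline means differed by 0.24, with an interval of -0.21 to 0.69.

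Wt1 encodes the zinc finger transcription factor of the mesothelium and epicardium. Its levels in set 1 were 6.43, 6.33 and 6.44 in saline, 6.77, 6.11 and 6.11 in isotype, and 6.56, 6.44 and 6.77 in anti-RGMb mice (log2). Set 2 gave 8.11, 8.13 and 7.99 in saline, 8.29 and 8.28 in isotype, and 8.11, 8.15 and 8.21 in anti-RGMb. The set 1 groups overlapped, and in set 2 both isotype mice lay slightly above all others. The isotype minus saline difference was 0.05 ± 0.11, anti-RGMb exceeded isotype by 0.09 ± 0.11, and it exceeded saline by 0.14 ± 0.10, with an interval of -0.08 to 0.35.

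**Figure D1:**
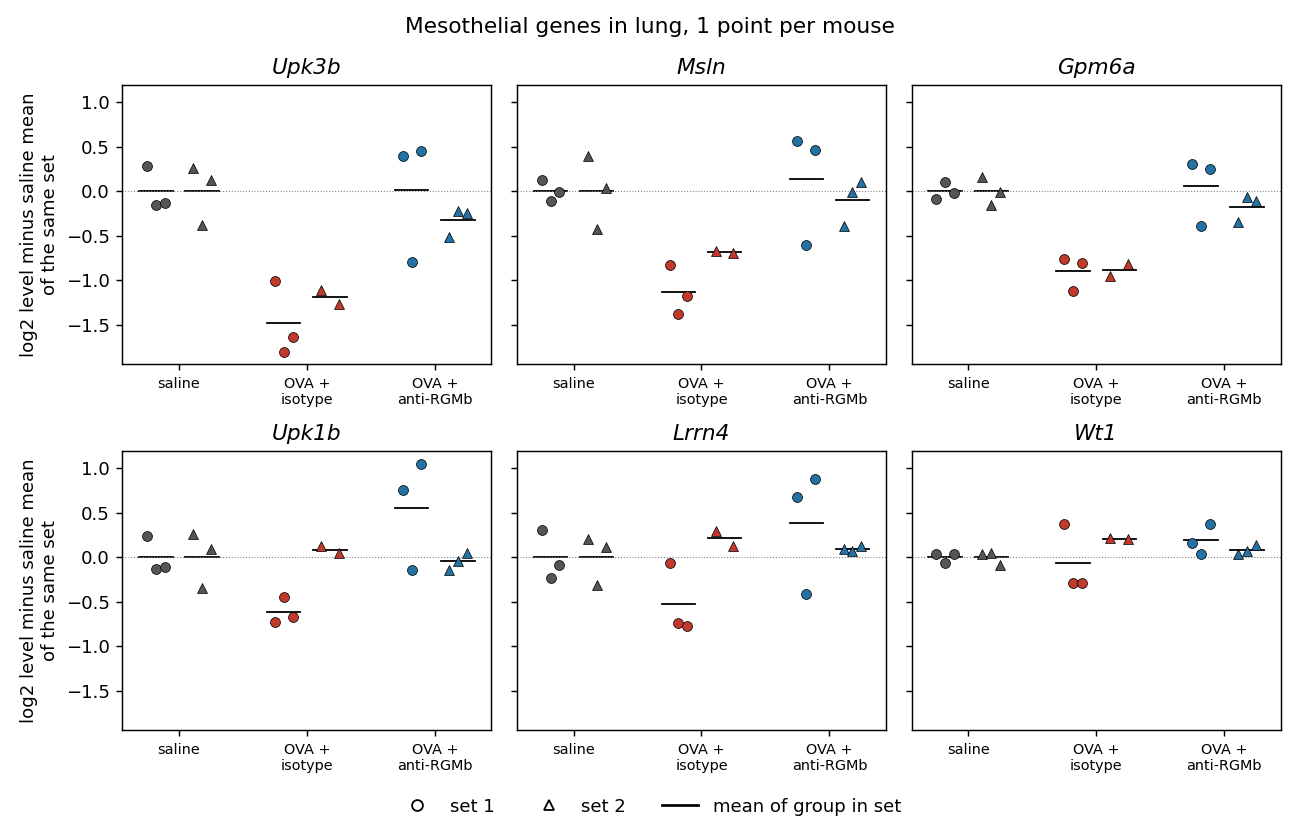
Log2 level of each of the 6 genes in each mouse minus the saline mean of the same set (y axis), by group (x axis). Circles are set 1, triangles set 2 and bars the mean of a group in a set. Isotype mice are the lowest for Upk3b, Msln and Gpm6a in both sets, and for Upk1b in set 1. Anti-RGMb mouse 2 lies at -0.80 for Upk3b and at -0.60 for Msln.

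Within the anti-RGMb group of set 1, mouse 2 was the lowest for 6 of the 6 genes. Against the saline mean of its set it lay at -0.80 for Upk3b, -0.60 for Msln, -0.41 for Lrrn4, -0.39 for Gpm6a, -0.14 for Upk1b and 0.04 for Wt1. Without this mouse the anti-RGMb minus isotype differences were 1.36 for Upk3b, 1.10 for Msln, 0.92 for Gpm6a, 0.68 for Upk1b, 0.60 for Lrrn4 and 0.11 for Wt1. Leaving out any 1 of the 17 mice kept the Upk3b difference between 1.08 and 1.36, the Msln difference between 0.83 and 1.10 and the Gpm6a difference between 0.77 and 0.92.

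The threshold was a limma p under 0.05 after Benjamini-Hochberg adjustment across the 19751 genes. By it, 3 of the 6 genes were past the threshold as lower in isotype than in saline, where 21.0% of all genes were lower and 14.6% higher. Likewise 3 of 6 were past it as higher in anti-RGMb than in isotype, where 11.1% of all genes were higher and 21.2% differed in either direction. Between anti-RGMb and saline 0 of 6 were past it, also at an unadjusted p, and 4.26% of all genes were higher and 2.24% lower. At an unadjusted p 3796 of the 19751 genes differed there. The isotype arrays enter both of the first comparisons, and the genes were listed with these results known, so the counts describe the choice. The median over the 6 genes was -0.62, 0.72 and 0.08 in the 3 comparisons, beside -0.04, 0.03 and -0.01 over all genes.

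The rule did not use the difference between the sets. For Upk1b the anti-RGMb minus isotype difference was 1.30 lower in set 2 than in set 1 (-1.30 ± 0.34, limma adjusted p = 0.124), and for Lrrn4 it was 1.02 lower (-1.02 ± 0.40, adjusted p = 0.339). For Msln, Upk3b, Wt1 and Gpm6a the same term was -0.69 ± 0.39, -0.63 ± 0.42, -0.39 ± 0.20 and -0.24 ± 0.23, with limma adjusted p of 0.527, 0.586, 0.497 and 0.702. So 0 of 6 passed the test, where 0.471% of all genes passed. At an unadjusted p 2 of 6 did, and so did 2231 of the 19751 genes. Without anti-RGMb mouse 2 the Upk1b term passed, at -1.64 (limma adjusted p = 0.00954), and it was the only 1 of the 6 genes to do so when any 1 mouse was left out. For isotype minus saline 0 of 6 terms passed, 0 at an unadjusted p, where 0.668% of all genes did, 1990 at an unadjusted p. For anti-RGMb minus saline 0 of 6 passed, 0 at an unadjusted p, and 0% of all genes did, 598 at an unadjusted p. The median anti-RGMb minus isotype difference over the 6 genes was 1.06 in set 1 and 0.23 in set 2.

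Where they passed the test in the first 2 comparisons, other genes known from mesothelium went the same way as Upk3b, Msln and Gpm6a, except Slpi. This list too was chosen with earlier results of these data known, so its counts describe the choice as well. Of 26 measured (of 27 listed), 12 fell and 1 rose in isotype against saline and 13 did not pass, with a median of -0.25. Of all genes, 21.0% fell and 14.6% rose. Against isotype, 11 rose in anti-RGMb, 0 fell and 15 did not pass, with a median of 0.31. Here 11.1% of all genes rose and 21.2% differed in either direction. Against saline, 1 rose in anti-RGMb, 2 fell and 23 did not pass, with a median of 0.00. In that comparison 4.26% of all genes rose and 2.24% fell. All p-values below are limma p-values adjusted over all 19751 genes. They set each group difference against the spread between mice.

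Among 8 measured secreted products, 5 fell in isotype and the same number rose in anti-RGMb against isotype. Igfbp6, which binds insulin-like growth factors, fell by 0.94 on the log2 scale (-0.94 ± 0.13, adjusted p = 1.7e-05) and rose by 0.71 ± 0.13 (adjusted p = 0.0008). Igfbp5, of the same family, fell by 0.68 (adjusted p = 0.00133) and rose by 0.78 (adjusted p = 0.00103). Rspo1, an R-spondin that strengthens Wnt signals, had differences of -0.60 (adjusted p = 0.00167) and 0.71 (adjusted p = 0.000922). The matrix protein gene Efemp1 had -0.59 and 0.53 (adjusted p = 5.0e-06 and 6.7e-05), and Ptgis, which encodes prostacyclin synthase, had -0.27 and 0.27 (adjusted p = 0.0056 and 0.0104). Slpi, a protease inhibitor that airway epithelium also secretes, went the other way: it rose in isotype by 0.94 ± 0.13 (adjusted p = 1.1e-05), differed by -0.15 between anti-RGMb and isotype (adjusted p = 0.467) and was 0.80 above saline in anti-RGMb (adjusted p = 0.000282).

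Of 6 regulators and genes of retinoid function, 3 fell in isotype and 4 rose in anti-RGMb against isotype. Aldh1a1, a retinaldehyde dehydrogenase, had differences of -0.68 ± 0.05 (adjusted p = 1.4e-08) and 0.58 ± 0.05 (adjusted p = 2.0e-06). Tcf21, a transcription factor that lung fibroblasts also express, had -0.77 and 0.71 (adjusted p = 1.5e-05 and 0.000127). Rarres2, which encodes the chemoattractant chemerin, had -0.64 and 0.37 (adjusted p = 6.9e-05 and 0.0126). Bnc1, a zinc finger protein, was past the threshold only for anti-RGMb minus isotype (0.54, adjusted p = 0.0368, against -0.41, adjusted p = 0.0858, for isotype minus saline), and this call was lost in 6 of 17 fits that left out 1 mouse: isotype 2, 3 or 2-2, or anti-RGMb 1, 3 or 2-2. Without isotype mouse 2 the Bnc1 difference was 0.46 (adjusted p = 0.0996).

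Of 8 other marker genes, most of them for surface proteins, 2 fell in isotype and rose in anti-RGMb against isotype. Nkain4, a membrane protein, had differences of -0.54 and 0.61 (adjusted p = 0.000119 and 0.000121). Cldn15, a tight junction claudin, had -0.45 (adjusted p = 0.0466) and 0.64 (adjusted p = 0.0104). The first Cldn15 call was lost in 8 of 17 fits: without saline 1, 3, 1-2 or 3-2, isotype 2, 3 or 2-2, or anti-RGMb 2-2. Muc16, the binding partner of mesothelin, had an anti-RGMb minus isotype difference of 0.45 ± 0.24 (adjusted p = 0.21), which was 1.05 in set 1 and -0.30 in set 2, like Upk1b and Lrrn4, and was in the dimmest 25% of genes on 7 arrays. Over these 26 genes 0 had a set term past the threshold in any comparison by limma. At an unadjusted p there were 1 for isotype minus saline, 6 for anti-RGMb minus isotype and, against saline, 1 for anti-RGMb.

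Of the keratins of simple epithelia, Krt19 and Krt7 fell in isotype by 0.58 and 0.42 (-0.58 and -0.42, adjusted p = 4.9e-05 and 0.000171), and 0 of 4 keratins rose in anti-RGMb against isotype, where Krt19 differed by 0.25 (adjusted p = 0.0595) and Krt7 by 0.14 (adjusted p = 0.189). Against saline both were lower in anti-RGMb, Krt19 by -0.33 (adjusted p = 0.0225) and Krt7 by -0.27 (adjusted p = 0.0216). These keratins are also made by airway and alveolar epithelium. The Krt7 call was lost without saline 3 or 1-2 or anti-RGMb 2, 3 or 1-2, and the Krt19 call without saline 1-2 or 3-2 or anti-RGMb 2, 1-2 or 3-2. Krt19 was past the threshold for anti-RGMb minus isotype without anti-RGMb mouse 2 (0.32, adjusted p = 0.00753) or mouse 3-2 (0.28, adjusted p = 0.0389).

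**Figure D2:**
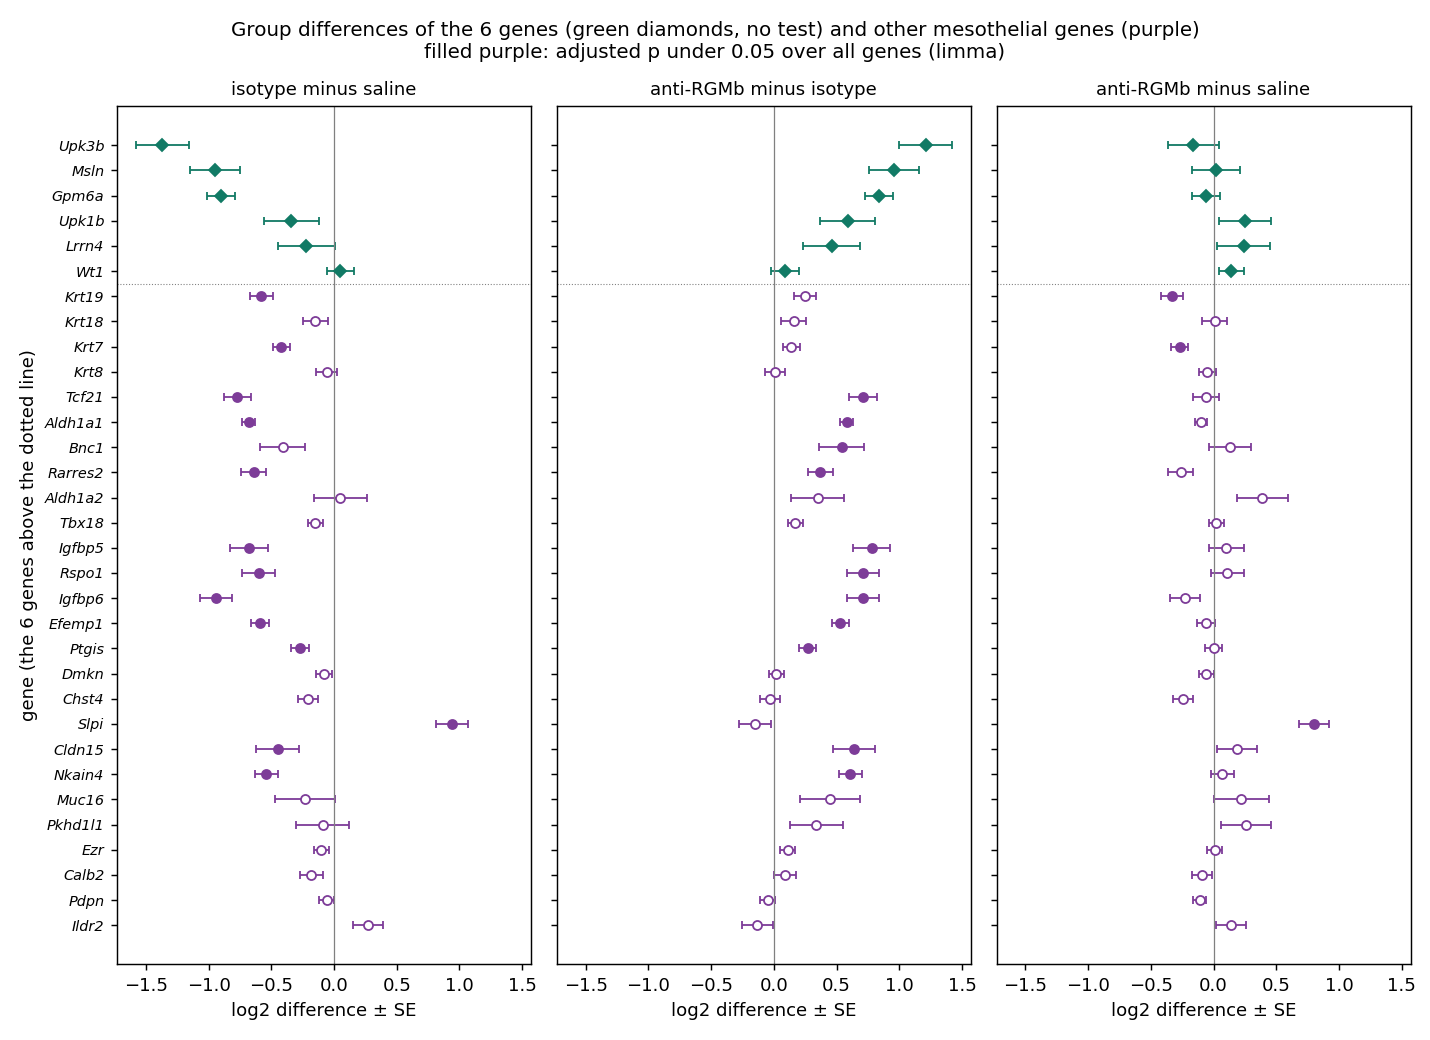
Log2 difference with its standard error (x axis) for the 6 genes (green diamonds, shown without a test) and 26 other mesothelial genes (purple circles, y axis) in the 3 comparisons. Filled purple circles have a limma adjusted p under 0.05 over all genes: 13 between isotype and saline, 11 between anti-RGMb and isotype, and 3 between anti-RGMb and saline.

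Relatives of these genes by family were also measured, 8 of 9 listed. Of these, 4 fell in isotype, 2 rose in anti-RGMb against isotype and 2 were below saline in anti-RGMb. Over all genes these shares were 21.0%, 11.1% and 2.24%. Upk1a, the tetraspanin uroplakin most like Upk1b by name and family, had differences of -0.68, 0.34 and -0.34 (limma adjusted p = 3.0e-05, 0.0195 and 0.0399). Lrrn3, a relative of Lrrn4, had -0.88, 0.41 and -0.47 (limma adjusted p = 3.7e-07, 0.00246 and 0.00141).

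How the genes vary between mice of the same group and set was not used to list them. For each mouse the deviation from the mean of its group in its set was taken, and 39 relations were tested by an exact permutation test (two-sided, all 15552 reassignments of mice within group and set), with Benjamini-Hochberg adjustment. Upk3b and Msln deviated together (Pearson r = 0.95, exact p = 0.000643, adjusted p = 0.0125; Spearman rho = 0.94, exact p = 0.000579, adjusted p = 0.0125; n = 17), with r = 0.97 over the 9 mice of set 1 and 0.95 over the 8 of set 2. Without the 2 mice farthest out, anti-RGMb 2 and saline 2-2, r was 0.90. Upk3b and Lrrn4 gave r = 0.97 (exact p = 0.00103, adjusted p = 0.0134) and rho = 0.93 (exact p = 0.00521, adjusted p = 0.0406), with r = 0.99 and 0.90 in the sets and 0.94 without those 2 mice. Lrrn4 thus followed Upk3b between mice of a group, while their isotype minus saline differences were -0.22 and -1.37.

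Msln and Lrrn4 gave r = 0.88 (exact p = 0.00328, adjusted p = 0.0213), rho = 0.86 (exact p = 0.00367, adjusted p = 0.0357) and r = 0.77 without the 2 mice farthest out. Msln and Gpm6a gave r = 0.89 (exact p = 0.00476, adjusted p = 0.0265), but rho = 0.78 (exact p = 0.0118) had an adjusted p of 0.0649, and r was 0.80 without 2 mice. The other 11 of the 15 pairs had an adjusted p over the threshold by r. Upk3b and Gpm6a gave r = 0.81 (exact p = 0.0169, adjusted p = 0.0733), Upk3b and Upk1b 0.79 (exact p = 0.0378, adjusted p = 0.0996), and 0.53 without 2 mice. Upk3b and Wt1 gave 0.63 (exact p = 0.0415, adjusted p = 0.101), with 0.72 in set 1 and -0.12 in set 2.

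The mean log2 value of the other 26 mesothelial genes, which share no probe set with the 6, deviated with Upk3b (r = 0.92, exact p = 0.000322, adjusted p = 0.0125; rho = 0.90, exact p = 0.000643, adjusted p = 0.0125), Msln (r = 0.92, exact p = 0.00206, adjusted p = 0.016; rho = 0.92, exact p = 0.00148, adjusted p = 0.0192) and Lrrn4 (r = 0.91, exact p = 0.00174, adjusted p = 0.016; rho = 0.84, exact p = 0.0063, adjusted p = 0.041). Without the 2 mice farthest out these r values were 0.84, 0.83 and 0.80. Within sets 1 and 2 they were 0.92 and 0.92 for Upk3b, 0.94 and 0.94 for Msln and 0.93 and 0.78 for Lrrn4. Gpm6a (r = 0.85), Upk1b (0.84) and Wt1 (0.58) had adjusted p of 0.053, 0.0968 and 0.0965 by the same exact test.

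**Figure D3:**
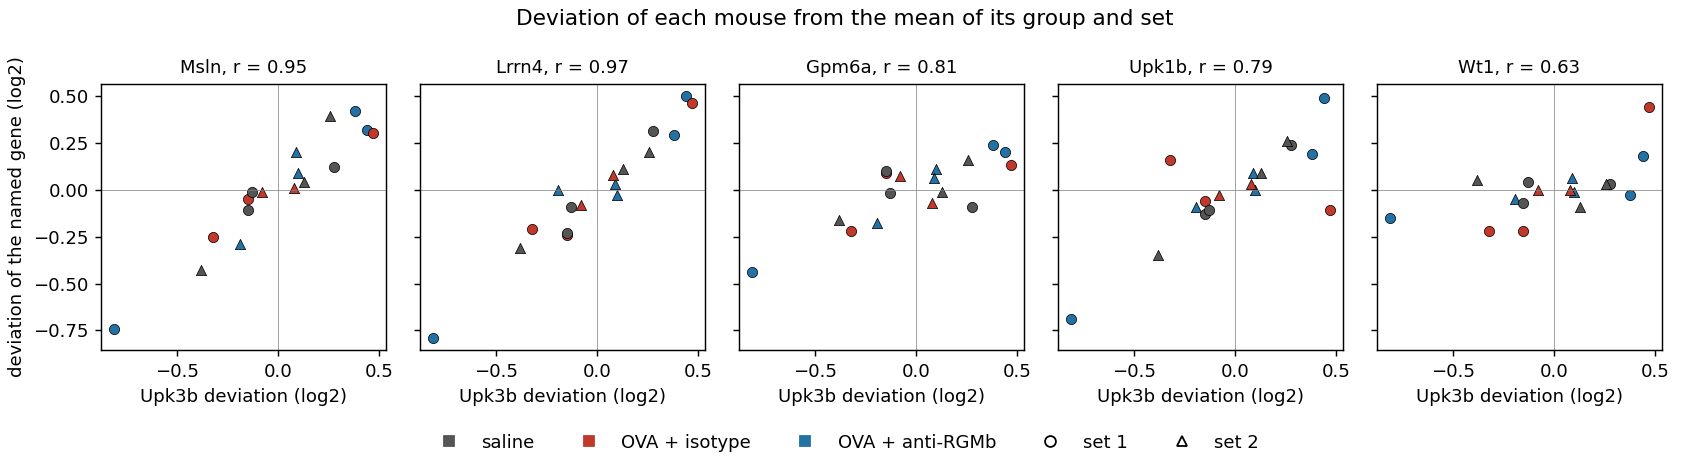
Deviation of each mouse from the mean of its group and set for Upk3b (x axis, log2) against each of the other 5 genes (y axis, log2). Colours are groups, circles set 1 and triangles set 2. Msln (r = 0.95) and Lrrn4 (r = 0.97) lie near a line, Wt1 (r = 0.63) does not, and anti-RGMb mouse 2 is the lowest point on the x axis.

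As a description over all 17 arrays, with each gene centred on its set mean, the genes outside the 6 that were most like the mean of the 6 by Pearson r were Sulf1 (0.96), Cldn15 (0.95), Igfbp5, Rspo1 and Bnc1 (0.94 each), Slurp1 (0.93), Lrrn4cl (0.92), and Bnc2, Lgals2 and Tpbgl (0.90 each). Of these, Cldn15, Igfbp5, Rspo1 and Bnc1 were on the list of other mesothelial genes. Sulf1, a heparan sulfate sulfatase, differed by -0.46, 0.48 and 0.02 in the 3 comparisons, Slurp1 by -0.89, 0.76 and -0.12, and Lgals2, a galectin, by -0.80, 0.75 and -0.05. With each gene centred on the mean of its group in its set, the closest were Bnc1 (0.96), Aldh1a2, Rpp25 and Cldn15 (0.94 each), Sulf1, Rspo1 and Neto1 (0.92 each), Podn (0.91), C2 (0.89) and Muc16 (0.88). Aldh1a2, a retinaldehyde dehydrogenase, did not pass in any comparison (0.05, 0.35 and 0.39). With the same centring, the remaining listed mesothelial genes that passed in some comparison ranged widely. Igfbp5 had r = 0.83, Rarres2 0.80, Nkain4 0.66, Igfbp6 0.64, Krt19 0.57 and Efemp1 0.53. Negative r was found for Krt7 (-0.02), Ptgis (-0.05), Aldh1a1 (-0.16), Slpi (-0.17) and Tcf21 (-0.28). Which cells made the RNA of these genes was not tested. Each of the 6 genes was compared with the mean of the other 5 in the same way, centred on the set mean: Msln had r = 0.97, Upk3b 0.92, Gpm6a 0.85, Lrrn4 0.82, Upk1b 0.81 and Wt1 0.45. All points share the 17 arrays.

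Markers of some other tissues moved with the same comparisons, and others did so little or not. Of all genes, 21.0% were lower and 14.6% higher in isotype than in saline. Between anti-RGMb and isotype 11.1% of all genes were higher and 21.2% differed in either direction. The sums of linear intensity given next weigh the brightest genes most. In saline mice of set 1 the brightest of the 6 were Upk3b, Gpm6a and Msln (means of 1151, 643 and 408), the 3 that were lower in isotype in both sets. Relative to the saline mean of the same set, the summed intensity of the 6 genes was 0.805 to 1.16 in saline, 0.421 to 0.666 in isotype and 0.684 to 1.42 in anti-RGMb mice. For the other mesothelial genes it was 0.960 to 1.04, 0.735 to 0.785 and 0.864 to 1.09. For heart muscle it was 0.611 to 1.75, 0.283 to 0.688 and 0.456 to 1.53, and 9 of its 10 genes fell in isotype (median -1.74) while 5 of 10 rose in anti-RGMb against isotype (median 1.30). For alveolar type 1 cells it was 0.937 to 1.04, 0.641 to 0.799 and 0.861 to 0.933, with 8 of 8 genes lower in isotype and 8 of 8 higher in anti-RGMb against isotype. For endothelium it was 0.963 to 1.03, 0.658 to 0.811 and 0.832 to 0.956. Leukocyte genes went the other way, at 0.949 to 1.04 in saline, 2.24 to 2.74 in isotype and 1.42 to 1.93 in anti-RGMb, with 7 of 7 higher in isotype and 5 of 7 lower in anti-RGMb against isotype. Airway epithelium genes summed to 0.959 to 1.06 in saline, 0.694 to 0.811 in isotype and 0.866 to 1.00 in anti-RGMb, with 4 of 8 lower in isotype.

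Other lists changed less, or in both directions. Alveolar type 2 genes summed to 0.943 to 1.05 in saline, 0.890 to 0.943 in isotype and 0.921 to 0.995 in anti-RGMb, and 5 of 8 fell in isotype (median -0.17). Fibroblast genes went both ways in isotype, with 3 higher and 4 lower of 8, and summed to 0.898 to 1.08, 0.766 to 1.15 and 0.938 to 1.24. For thymus genes the sums were 0.939 to 1.05, 0.933 to 1.04 and 0.902 to 1.18, with 1 of 7 higher and 0 lower in isotype. In adipose and skeletal muscle lists 2 of 7 and 2 of 8 genes fell in isotype, which is near the share of all genes that fell, 21.0%. The part of these tissues in the group differences of the 6 genes was not tested.

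Between mice of the same group and set, none of the 18 relations of the 6 genes with the mean of heart muscle, adipose or alveolar type 1 genes passed the exact permutation test after adjustment over all 17 mice. For heart muscle and adipose genes the sign differed between the sets for most of the 6 genes, so no pooled value is given. Upk3b had r of 0.35 in set 1 and -0.80 in set 2 with heart muscle genes, and 0.68 and -0.71 with adipose genes. Upk1b had 0.75 and -0.72 with heart muscle genes, and 0.90 and -0.76 with adipose genes. With alveolar type 1 genes Upk3b had -0.37 and 0.14. Serosal macrophage genes, which mark macrophages of the body cavities, numbered 7 measured: 4 rose and 3 fell in isotype, and 3 rose in anti-RGMb against isotype. Their mean log2 value against the saline mean was -0.18 to 0.14 in saline, 0.63 to 1.34 in isotype and 0.11 to 1.57 in anti-RGMb. The summed intensity, which the brightest genes dominate, was 0.946 to 1.06, 0.814 to 1.20 and 0.934 to 1.54. Cd5l, a macrophage-secreted scavenger protein, rose 14.2-fold in isotype (limma adjusted p = 4.1e-05), and Prg4, which encodes lubricin, rose 6.33-fold (limma adjusted p = 0.0015). The 3 that fell in isotype were Icam2 (-0.62), Gata6 (-0.51) and Garnl3 (-0.18) on the log2 scale. Their limma adjusted p were 0.000118, 1.8e-05 and 0.012. These same 3 were the ones that rose in anti-RGMb against isotype, by 0.51, 0.34 and 0.22.

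**Figure D4:**
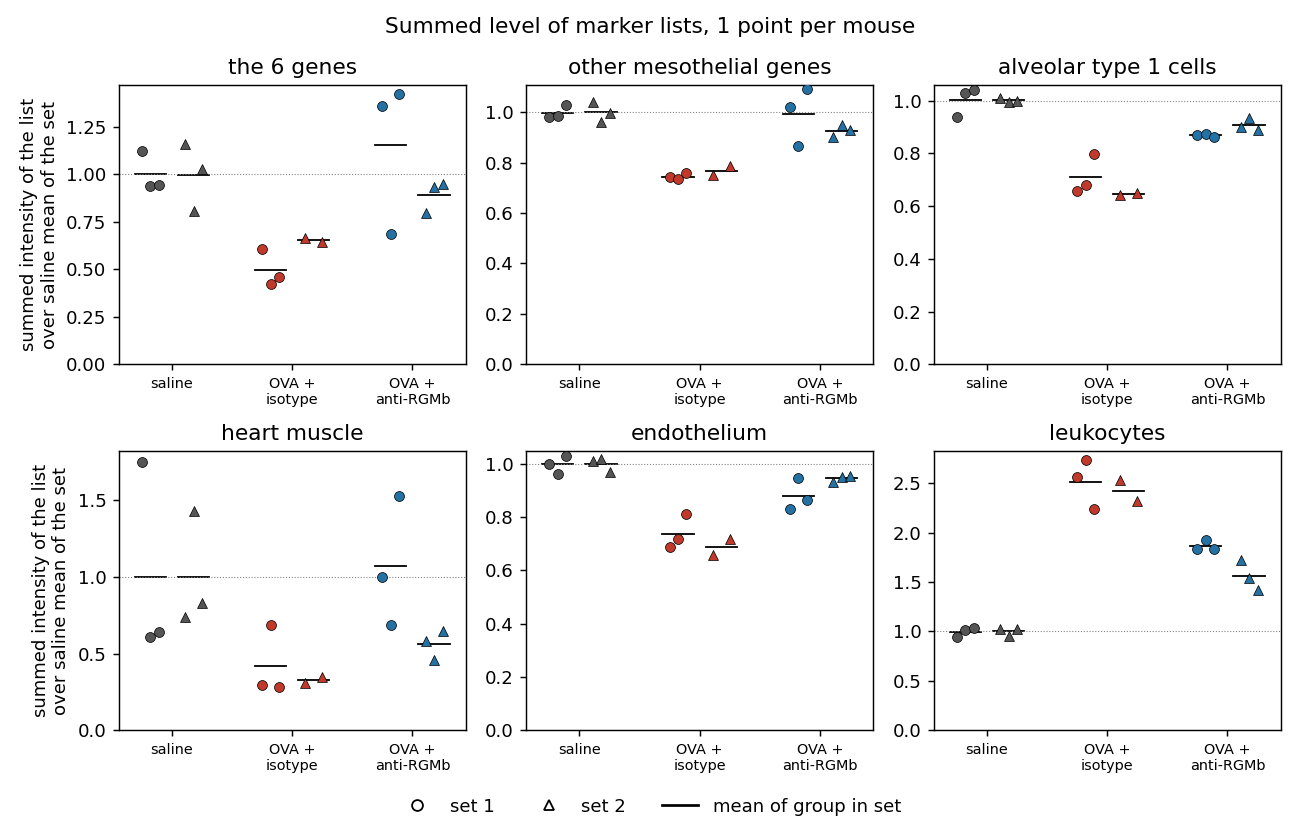
Summed intensity of each marker list divided by the saline mean of the same set (y axis, starting at 0), by group (x axis), 1 point per mouse. Circles are set 1, triangles set 2 and bars group means in a set. The sum over the 6 genes ranges from 0.421 to 0.666 in isotype mice, that over heart muscle genes from 0.283 to 0.688 and that over leukocyte genes from 2.24 to 2.74.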

How the data were processed

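Total lung RNA, isolated with a column kit and labelled with biotin, was hybridized to Affymetrix Mouse Gene 1.0 ST arrays, 1 per mouse, per the labels' protocols. The deposited intensity values, linear and processed by the authors with RMA per the submitters' processing notes, were used. The RMA version, and whether the sets of mice were normalized together, are not given in the sources used here. Of 24679 probe sets, 21354 had 1 gene symbol, 1275 several and 2050 none. Those with 1 symbol gave 19751 genes, and for 893 genes with several the brightest was kept. The log2 of the intensity was taken with no pseudocount and no filter. Groups were compared with limma 3.58.1 (R 4.3.3), with the set of mice as a fixed block over all 17 arrays and Benjamini-Hochberg adjustment over all genes. The fit was tested on simulated data. The precision is limited by the number of arrays.

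The 6 genes and all marker lists were chosen with earlier results of these data known. Text genes are the 6, up to 12 other mesothelial genes per comparison with the smallest p, and up to 3 of other lists by size of difference. Added to these are the 3 serosal macrophage genes that fell in isotype and the 10 genes most like the 6 under each centring. Alternatives were quantile normalization or median centring of arrays, log2 of the value + 16, the mean of a gene's probe sets, leaving out the dimmest 40% of genes, limma's trend and robust options or array weights, no block, mouse number as a block, each set alone and each mouse left out.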

Additional observations from a re-analysis of the deposited data

Results flagged for a closer look

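Over 33 groups of mice examined, 2 held a mouse farther from the others than Dixon's 95% critical value allows, where chance gives about 1 in 20. Wt1 was highest in anti-RGMb mouse 3, at 0.37 above the saline mean of its set (log2), where the next mouse of the group was at 0.16 and the lowest at 0.03. The mean of the serosal macrophage genes was lowest in anti-RGMb mouse 1, at 0.11 on the same scale, where the next mouse was at 1.19 and the highest at 1.57.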

How the results depend on the processing

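Without the replicate block for the sets, whose arrays differ in overall brightness, 0 of the 6 genes and 0 of 26 other mesothelial genes passed in any comparison by limma. The medians of the 6 genes were then -0.80 and 0.90 for the first 2 comparisons, against -0.62 and 0.72 with the block. The brighter set 2 held 2 of the 5 isotype mice and 3 of the 6 in each other group. Set brightness therefore enters these unblocked medians, and they do not show whether the sizes held. At an unadjusted p, 1 of the 6 and 1 of the 26 passed for isotype minus saline, 1 and 0 for anti-RGMb minus isotype, and 0 and 0 for anti-RGMb minus saline. Among all genes 481, 73 and 101 did. In set 1 alone, 7 other mesothelial genes passed for anti-RGMb minus isotype and 0 for anti-RGMb minus saline (5 at an unadjusted p), and the median of the 6 genes for anti-RGMb minus isotype was 1.06. In set 2 alone that median was 0.23, and 1 other mesothelial gene passed for anti-RGMb minus saline. Leaving out 1 mouse gave 12 to 15, 10 to 12 and 1 to 3 other mesothelial genes in the 3 comparisons, medians of the 6 genes of -0.70 to -0.57, 0.59 to 0.80 and 0.00 to 0.15, and 0 to 1 of the 6 with a set term for anti-RGMb minus isotype. No called value changed sign under any alternative run. Mouse numbers as a replicate block gave 14, 11 and 2 other mesothelial genes and medians of -0.62, 0.72 and 0.08. Same-numbered mice did not deviate together: 3 of 16 pairs had a correlation over 0.1 (range -0.60 to 0.30), and in 5 of 32 comparisons a mouse was most like its own number. Depth here means the number of arrays, 5 or 6 a group.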
